A study of Homo sapiens with 12 samples.

Results

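The genes described here encode the chains of collagens, laminins and integrins. They were every row of the count table whose gene symbol has the form of a collagen chain (COL, a number, A, a number), a laminin chain (LAMA, LAMB or LAMC with a number) or an integrin chain (ITGA or ITGB with its number or letter), 59 of 20771 genes in all: 30 collagen, 9 laminin and 20 integrin genes. Of these, 49 passed the filter on low counts and 10 did not (among them COL10A1, COL14A1, COL28A1, COL4A3, COL6A6, COL8A2, COL9A1, ITGA11 and ITGB6). Members of these families that the table does not list, such as COL1A2 and ITGAL, were not analysed here.

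RNA was sequenced from EW8-RRM1-KO and TC71-RRM1-KO, human Ewing sarcoma cell lines in which the endogenous RRM1 gene was knocked out with CRISPR/Cas9 and replaced by a codon-optimised RRM1 transgene that doxycycline switches on. RRM1 is the catalytic subunit of ribonucleotide reductase, which makes the deoxyribonucleotides needed for DNA replication. There were 4 groups of 3 libraries, namely each line at 0 h, with doxycycline, and at 48 h after its removal. The knockout and the transgene were therefore present in every library, controls included. Each line was grown from a single cell, so line and clone cannot be told apart, and nothing in the labels says that the 3 libraries of a group came from separate cultures, so p-values measure only the spread between these libraries.

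Collagens, laminins and integrins are the structural proteins of the extracellular matrix and the receptors that hold cells to it. Collagens assemble from 3 alpha chains into fibrils, networks and fibril-bound molecules, whereas laminins assemble from 1 alpha, 1 beta and 1 gamma chain and form the sheet of the basement membrane. Integrins pair 1 alpha chain with 1 beta chain at the cell surface, bind collagen, laminin or fibronectin outside the cell and connect to the actin cytoskeleton inside. Ewing sarcoma grows in bone and soft tissue and is driven by a fusion of EWSR1 with an ETS factor gene, most often FLI1.

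Library totals ran from 18468485 to 35698991 counts, and the listed collagen, laminin and integrin genes held 0.187% to 0.287% of them. The 10 Ewing sarcoma markers examined, among them NKX2-2, NR0B1, CD99 and PRKCB, were measured in every library. Their summed level was 3955 to 4012 CPM (counts scaled to a common library size) at 0 h and 3572 to 3614 CPM at 48 h in EW8. In TC71 it was 3268 to 3347 CPM at 0 h and 3176 to 3295 CPM at 48 h. The 4 leukocyte markers in the table (PTPRC, CD4, CD8A and CD14) reached at most 13 counts, and the endothelial marker CDH5 at most 6. The row of RRM1 rose after doxycycline was withdrawn (log2 fold change 2.88 ± 0.07 in EW8 and 0.65 ± 0.07 in TC71), although doxycycline is what switches the transgene on. Whether reads of the codon-optimised transgene are counted on this row is not given in the sources used here, so the row does not check the labels. In EW8 it held 214, 166 and 317 counts with doxycycline and 1201, 1449 and 1514 after removal, and in TC71 422, 316 and 418 with doxycycline and 674, 707 and 778 after removal.

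Removal of doxycycline raised the RNA of many more matrix and receptor genes than it lowered, and it did so in both lines. The words upregulated and downregulated stand for a change by a fold of more than 2 whose adjusted p was under 0.05, by edgeR's quasi-likelihood test with Benjamini-Hochberg adjustment over the 16515 genes tested. In EW8, 18 of the 49 tested members were upregulated (36.7%) where 13.9% of all tested genes were, and 1 was downregulated, COL18A1, where 3.35% of all genes were. In TC71, 6 were upregulated (12.2%) where 3.26% of all genes were, and none was downregulated where 0.854% of all genes were. The TC71 count of 6 was 4 with DESeq2 and between 3 and 7 with 1 library left out. In TC71 COL4A4, ITGAM and ITGB3 each lost the call without single libraries. Downward in TC71, 4 members had an unadjusted p below 0.05 by edgeR, each with an adjusted p below 0.05 too (19.2% of all genes had one) but a fold under 2, and DESeq2 called 0. The 6 members called in TC71 (COL2A1, COL4A4, ITGAM, ITGB3, LAMA4 and LAMB3) were called in EW8 as well, so the shared genes were 100% of the TC71 calls and 33.3% of the EW8 calls. Over all genes the 460 shared upward calls were 85.3% and 20.1%. Of the 12 called in EW8 alone, 11 had a log2 fold change above 0 in TC71 (86.4% of all genes called upward in EW8 alone did), and COL27A1 did not.

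The median log2 fold change of the 49 tested members was 0.57 in EW8 beside 0.03 for all tested genes, and 0.26 in TC71 beside -0.00. With genes of no more than 3 counts throughout a group placed at the bound that 3 counts per library sets, and COL15A1 left out because both EW8 groups were under that floor, the EW8 median was 0.58. With no threshold on the fold, 33 members had an adjusted p below 0.05 upward in EW8 (37.0% of all genes did) and 4 downward (31.6% of all genes did). The same counts in TC71 were 22 (22.9% of all genes) and 4 (19.2% of all genes). Summed over the family, collagen RNA went from 661 ± 12.1 to 1065 ± 22.1 CPM in EW8 and from 651 ± 22.6 to 797 ± 53.3 CPM in TC71 (mean ± SD, n = 3). The laminin sum went from 433 ± 5.0 to 609 ± 6.98 CPM in EW8 and from 379 ± 5.60 to 405 ± 15.3 CPM in TC71. The integrin sum went from 958 ± 13.2 to 1135 ± 10.9 CPM and from 1099 ± 17.5 to 1304 ± 39.2 CPM in the respective lines. Without ITGB2 the integrin sum went from 588 ± 7.18 to 643 ± 12.6 CPM in EW8 and stood at 588 ± 8.17 and 587 ± 12.2 CPM in TC71. Without the gene that added most, the collagen sum went from 389 ± 3.60 to 636 ± 13.6 CPM in EW8 (COL5A2 left out) and from 400.2 ± 4.49 to 480 ± 20.1 CPM in TC71 (COL9A2 left out), and the laminin sum from 344 ± 4.21 to 426 ± 4.58 CPM (LAMA2 left out) and from 282 ± 8.55 to 298 ± 12.4 CPM (LAMB2 left out). In such bulk libraries, a change in the share of cells that express a gene and a change in RNA per cell cannot be told apart.

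**Figure D1:**
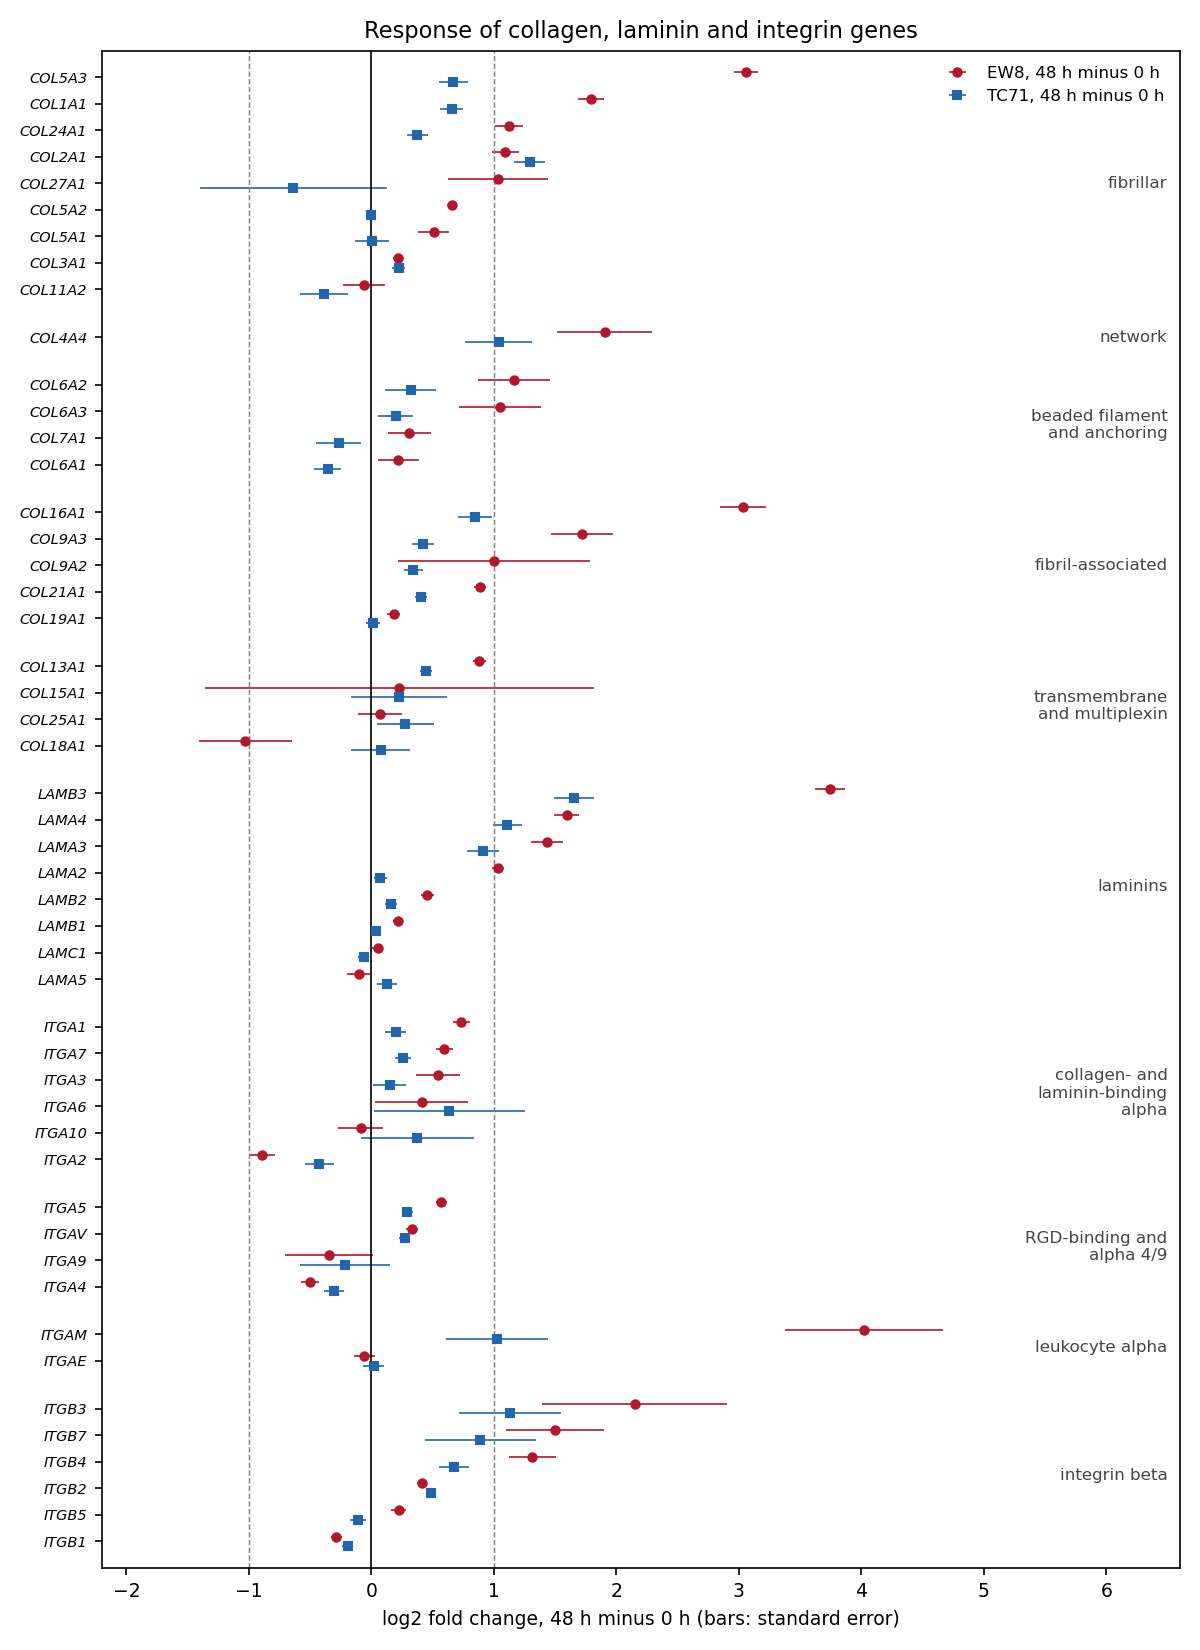
Log2 fold change (48 h minus 0 h, horizontal axis, with its standard error as bars) of the 49 tested collagen, laminin and integrin genes in EW8 (circles) and TC71 (squares), in role groups. Dashed lines mark a fold of 2; LAMB3, COL5A3, COL16A1 and ITGAM lie beyond 3 in EW8 (the fitted value of ITGAM, 4.02, rests on 2 counts over the 0 h libraries and depends on the prior count), and 34 genes lie above 0 in both lines.

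The fibrillar collagens form the rope-like fibrils of bone, cartilage and connective tissue, and 5 of the 9 tested were upregulated in EW8 and 1 in TC71 (13.9% and 3.26% of all genes), with median log2 fold changes of 1.03 and 0.22. COL5A3, a chain of the minor fibrillar collagen V that is built into other fibrils, had the largest log2 fold change of them in EW8, and COL2A1 in TC71. The level of COL5A3 was 3.46, 4.81 and 3.93 CPM in the EW8 libraries at 0 h and 34.8, 30.7 and 34.9 CPM at 48 h, a log2 fold change of 3.06 ± 0.10 (SE, adjusted p = 5.58e-24). In TC71 it was 3.84, 4.51 and 4.47 CPM at 0 h and 7.25, 6.68 and 6.40 CPM at 48 h (0.67 ± 0.12, adjusted p = 1.72e-05). The lines overlapped at 0 h, all 48 h libraries lay above all 0 h libraries in each, and the 48 h libraries of EW8 lay far above those of TC71. Its partner chains moved less: COL5A2, at 273 ± 8.60 CPM the most abundant collagen V chain of EW8 at 0 h, rose by 0.65 ± 0.04 in EW8 (adjusted p = 1.80e-16) and had a log2 fold change of -0.00 in TC71, and COL5A1 had values of 0.51 ± 0.13 (adjusted p = 0.000588) and 0.00 ± 0.14. The gene COL5A3 lies on chr19:9959561-10010504 (hg38, - strand).

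COL1A1 encodes the main chain of collagen I, the principal protein of bone matrix. It stood at 9.64, 12.8 and 11.3 CPM in EW8 at 0 h and at 40.0, 33.5 and 42.2 CPM at 48 h (log2 fold change 1.79 ± 0.10, adjusted p = 7.05e-12). In TC71 the values were 21.4, 18.9 and 21.5 CPM and then 35.9, 29.1 and 32.6 CPM (0.66 ± 0.09, adjusted p = 1.47e-05). TC71 thus began higher, and after 48 h the libraries of the lines overlapped. COL24A1, a fibrillar collagen of developing bone, went from 7.71, 5.73 and 6.89 to 14.2, 15.6 and 15 CPM in EW8 (1.13 ± 0.11, adjusted p = 1.01e-09), below every TC71 library, where it went from 16.9, 17.8 and 21.8 to 24.6, 26.8 and 21.9 CPM (0.38 ± 0.09, adjusted p = 0.00114).

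COL2A1, the cartilage collagen, was upregulated by a like amount in the lines. It went from 5.08, 6.76 and 5.34 to 13.9, 10.8 and 11.5 CPM in EW8 (log2 fold change 1.09 ± 0.11, adjusted p = 1.42e-10) and from 2.98, 3.09 and 3.23 to 7.44, 7.76 and 7.58 CPM in TC71 (1.29 ± 0.13, adjusted p = 3.99e-10). The 0 h and 48 h libraries did not overlap in either line, and the difference between the responses was -0.20 ± 0.17 (adjusted p = 0.360). Without replicate 1 of EW8 at 0 h its EW8 value was 0.99, and without replicate 1 at 48 h 0.98, just under the fold of 2. COL27A1, also called in EW8, had only 5, 9 and 8 counts at 0 h, then 10, 15 and 12 at 48 h (1.03 ± 0.41, adjusted p = 0.0252), and the call was lost without replicate 1 or 3 at 0 h (0.82 and 0.80) or replicate 2 at 48 h (0.88). COL3A1, which builds the fine fibrils of soft tissue, had the small value of 0.22 in both lines, and COL11A2 had log2 fold changes of -0.06 and -0.39 with adjusted p-values of 0.771 and 0.114.

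**Figure D2:**
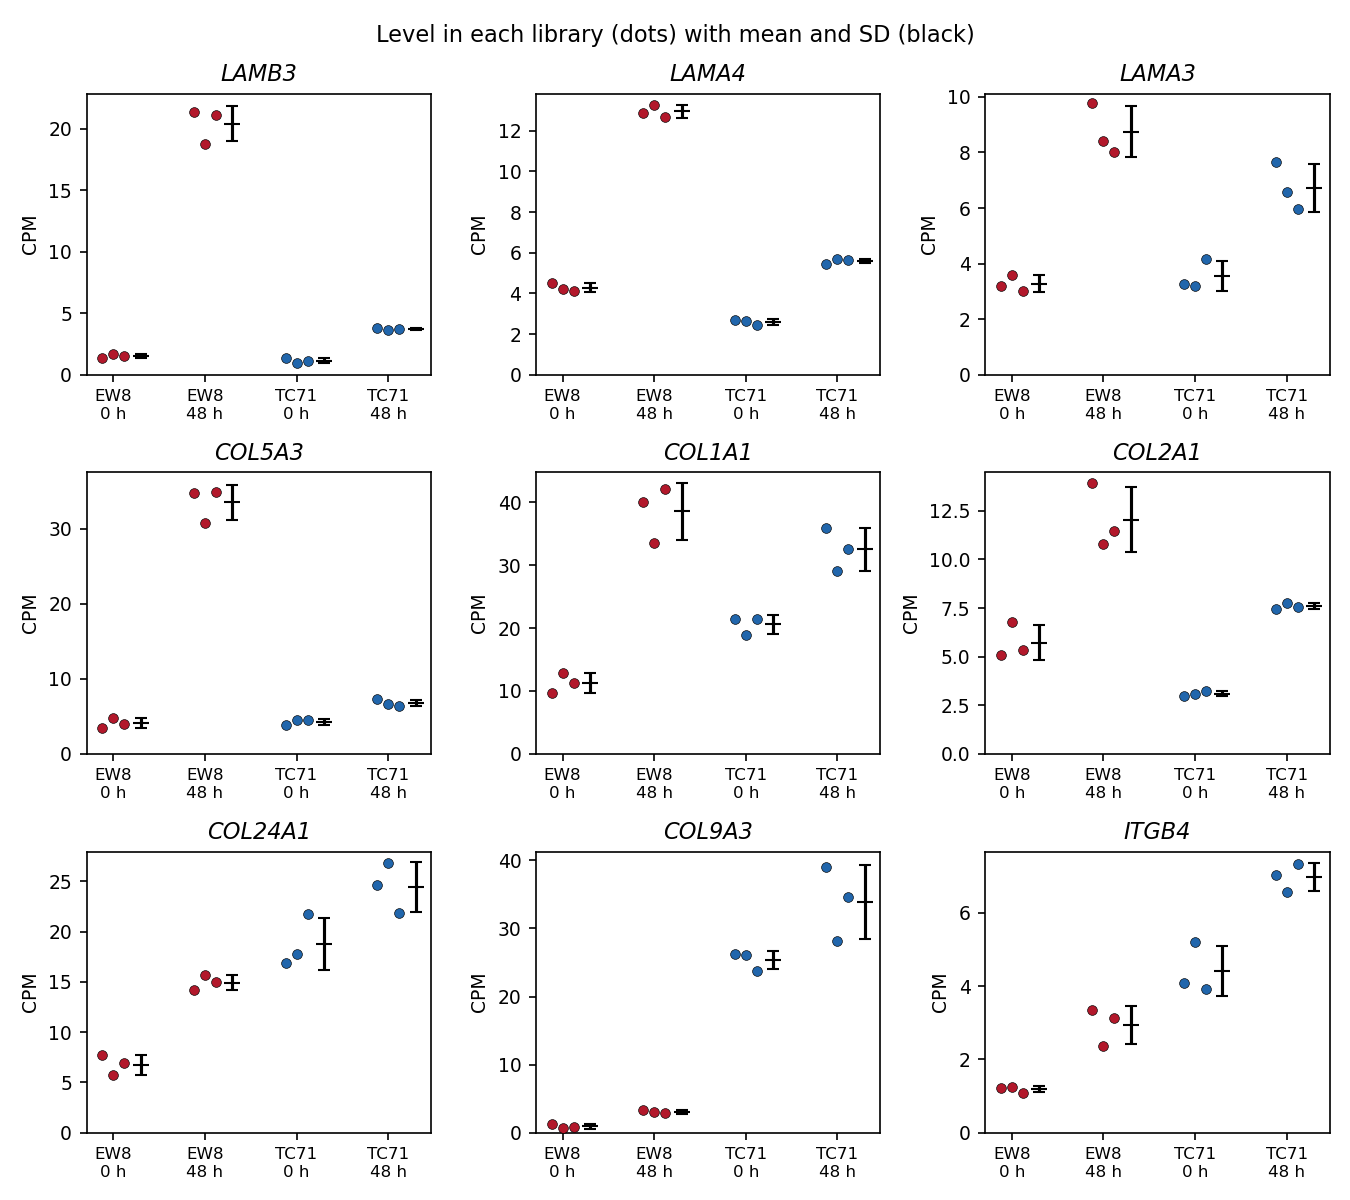
CPM in each of the 12 libraries (dots, vertical axis from 0) for 9 genes, with the mean and SD of each group of 3 in black; EW8 is red and TC71 blue. For LAMB3 the EW8 libraries lie at 1.36 to 1.66 CPM at 0 h and at 18.8 to 21.4 CPM at 48 h, while COL9A3 and ITGB4 stay lower in EW8 than in TC71 at both times.

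Fibril-associated collagens sit on the surface of fibrils and link them to other matrix, and 2 of the 5 tested were upregulated in EW8, where 13.9% of all genes were (median log2 fold change 1.0). In TC71 4 of them rose by less than the fold of 2 (median 0.41), where 22.9% of all genes rose at any fold. COL16A1 had 15, 9 and 35 counts in EW8 at 0 h and 120, 141 and 131 at 48 h, and 103, 61 and 87 followed by 190, 167 and 179 in TC71. Its log2 fold changes were 3.04 ± 0.19 and 0.85 ± 0.14 in the respective lines (adjusted p = 5.46e-16 and 5.49e-06), and at 48 h the lines overlapped, at 6.38 to 7.07 CPM in EW8 and 5.54 to 7.25 CPM in TC71. COL9A3, a chain of the cartilage collagen IX, went from 1.31, 0.687 and 0.793 to 3.35, 3.06 and 2.84 CPM in EW8 (1.72 ± 0.26, adjusted p = 3.13e-06). In TC71 it went from 26.2, 26 and 23.8 to 39.0, 28.1 and 34.6 CPM (0.42 ± 0.09, adjusted p = 0.000777). The EW8 libraries at 48 h were thus still below every TC71 library. COL9A2, its partner in the collagen IX trimer, rose in TC71 only within the fold of 2 (0.34 ± 0.08, adjusted p = 0.00357) and had between 2 and 9 counts in each EW8 library, while the third chain, COL9A1, had at most 8 counts in any library and was not tested. COL21A1, an abundant member at 101 ± 2.72 CPM in EW8 at 0 h, rose by 0.89 ± 0.05 in EW8 and 0.41 ± 0.05 in TC71, short of the fold of 2 in each.

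Collagen VI forms beaded filaments around cells from 3 chains that lie on 2 chromosomes. COL6A2 (12, 10 and 14 counts at 0 h, then 15, 28 and 23 at 48 h in EW8) and COL6A3 (17, 8 and 8, then 20, 20 and 16) were upregulated in EW8 at these low counts, by 1.17 ± 0.30 and 1.05 ± 0.33 on the log2 scale (adjusted p = 0.000784 and 0.00587). Either call was lost when 1 library was left out: COL6A2 had 0.99 without replicate 3 at 0 h and 0.96 without replicate 2 at 48 h, and COL6A3 had 0.57 without replicate 3 at 0 h and 0.97 without replicate 1 at 48 h. COL6A1 did not pass in EW8 (0.22 ± 0.17, adjusted p = 0.251) and fell in TC71 within the fold of 2 (-0.36 ± 0.11, adjusted p = 0.00786). COL7A1, the anchoring fibril of skin, had log2 fold changes of 0.31 and -0.27 with adjusted p-values of 0.122 and 0.255.

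Among the basement membrane and network collagens, 1 of the 4 in the table was tested, COL4A4, and it was upregulated in both lines. The EW8 libraries held 9, 7 and 5 counts before and 15, 21 and 29 after removal (log2 fold change 1.91 ± 0.39, adjusted p = 5.52e-05), and 30, 8 and 18 followed by 49, 39 and 49 in TC71 (1.04 ± 0.27, adjusted p = 0.00234). The TC71 call was lost without replicate 2 at 0 h (0.77) or replicate 1 at 48 h (0.93). COL4A3, which shares a trimer with COL4A4 and starts 419 bases away from it on the opposite strand by the RefSeq starts, had 1 to 16 counts per library and was not tested. The transmembrane collagens and multiplexins held the only downregulated member. COL18A1, whose end fragment is endostatin, had 11, 10 and 25 counts in EW8 at 0 h and 4, 7 and 7 at 48 h (-1.03 ± 0.38, adjusted p = 0.0163). Its value was -0.80 without replicate 3 at 0 h and -0.84 without replicate 1 at 48 h, both short of the call. Some 18.5% of its exon bases are shared with SLC19A1 on the opposite strand, and whether the counting used strand is not given in the sources used here. COL13A1, a transmembrane collagen of cell contacts, rose from 56.6 ± 3.0 to 104 ± 3.39 CPM in EW8 (0.88 ± 0.05, adjusted p = 2.46e-17) and from 61.2 ± 1.64 to 83.3 ± 2.80 CPM in TC71 (0.44 ± 0.05, adjusted p = 3.64e-09), below the fold of 2. COL25A1 and COL15A1 passed in neither line.

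Of the 8 tested laminin chains, 4 were upregulated in EW8 (LAMB3, LAMA4, LAMA3 and LAMA2) and 2 in TC71 (LAMB3 and LAMA4), where 13.9% and 3.26% of all genes were, with median log2 fold changes of 0.75 and 0.14. LAMB3, the beta 3 chain of epithelial basement membranes, had the largest log2 fold change of the tested members with more than 3 counts in some library of each EW8 group. Its values were 1.36, 1.66 and 1.56 CPM in EW8 at 0 h and 21.4, 18.8 and 21.1 CPM at 48 h (3.74 ± 0.12, adjusted p = 8.38e-24). In TC71 they were 1.38, 0.981 and 1.12 CPM and then 3.78, 3.66 and 3.71 CPM (1.66 ± 0.16, adjusted p = 3.99e-10). The lines overlapped at 0 h and were apart at 48 h, and every 48 h library lay above every 0 h library.

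LAMA3, an alpha chain of epithelial basement membranes, pairs with LAMB3. It went from 3.20, 3.61 and 3.02 to 9.78, 8.42 and 8.03 CPM in EW8 (log2 fold change 1.43 ± 0.13, adjusted p = 1.43e-11) and from 3.28, 3.19 and 4.18 to 7.67, 6.56 and 5.97 CPM in TC71 (0.91 ± 0.13, adjusted p = 6.72e-07). LAMA4, a chain of vessel and muscle basement membranes, was upregulated in both lines. Its libraries held 4.51, 4.24 and 4.12 CPM at 0 h and 12.9, 13.3 and 12.7 CPM at 48 h in EW8 (1.60 ± 0.10, adjusted p = 9.71e-16), and 2.68, 2.65 and 2.44 CPM and then 5.46, 5.67 and 5.66 CPM in TC71 (1.11 ± 0.12, adjusted p = 3.91e-09). Replicates of LAMA4 lay close together and the groups did not overlap.

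LAMA2, the alpha chain of muscle laminin, was called in EW8 alone. It rose from 86.8, 91.1 and 90.6 to 175, 190 and 184 CPM in EW8 (log2 fold change 1.03 ± 0.05, adjusted p = 7.56e-20), and in TC71 it had 42.2, 37.9 and 38.6 CPM and then 40.4, 41.8 and 42.6 CPM (0.07 ± 0.05, adjusted p = 0.293). The difference between the responses was 0.96 ± 0.07 (adjusted p = 3.63e-13), short of the fold of 2, and without replicate 1 at 0 h the EW8 value itself was 0.98. The chains that laminins share moved little: LAMC1, the gamma 1 chain, had log2 fold changes of 0.05 and -0.06 (adjusted p = 0.310 and 0.285), LAMB1 rose by 0.21 ± 0.04 in EW8 (adjusted p = 1.92e-05), and LAMB2 rose by 0.46 ± 0.05 in EW8 and 0.16 ± 0.05 in TC71 (adjusted p = 1.23e-09 and 0.00860). LAMA5, the widespread alpha 5 chain, passed in neither line.

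Per length of transcript, LAMB1 was the most abundant laminin chain in EW8 at 0 h (26.2 ± 0.357 CPM per kb), ahead of LAMC1 (11.6 ± 0.0672) and LAMB2 (11.4 ± 0.503), which did not differ beyond their spread, and of LAMA2 (9.23 ± 0.240). In TC71 at 0 h LAMB1 (19.3 ± 0.469) was followed by LAMB2 (17.0 ± 0.860), LAMC1 (9.46 ± 0.135), LAMA5 (4.49 ± 0.224) and LAMA2 (4.08 ± 0.240). The leading alpha chain of EW8 was thus LAMA2 with LAMA5 at 2.57 ± 0.238 CPM per kb, while in TC71 these were close. LAMB3 went from 0.380 ± 0.0384 to 5.09 ± 0.352 CPM per kb in EW8, which still left it below LAMB1 at 30.4 ± 0.474.

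**Figure D3:**
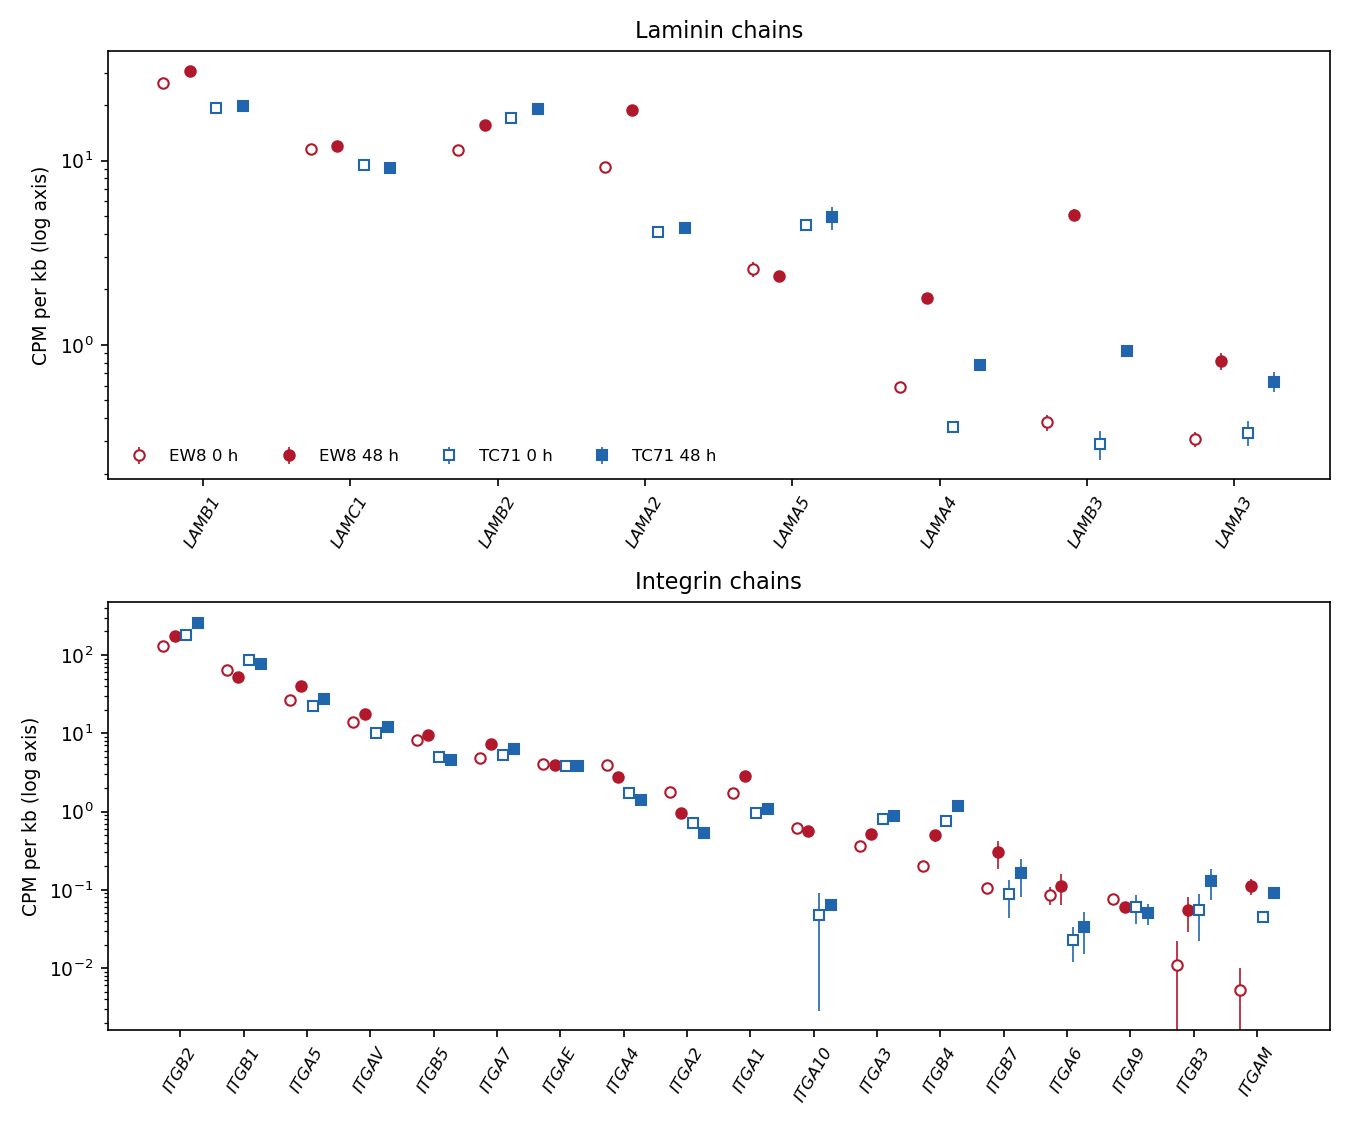
Level per length (CPM per kb of the canonical transcript, log axis, mean with SD of 3 libraries) of the tested laminin chains (upper panel) and integrin chains (lower panel), open symbols at 0 h and filled at 48 h, circles for EW8 and squares for TC71; a bar that reaches the lower edge has an SD close to or above its mean. LAMB1 has the highest mean of the laminins and ITGB2 of the integrins in each of the 4 groups, and LAMB3 shows the widest gap between open and filled circles among the laminins.

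The study concerns AP-1, the FOS and JUN dimers that bind the letters TGANTCA. Shown here are the sequences before the starts of LAMB3, LAMA3 and COL5A3, which were upregulated in EW8. They are RefSeq promoter windows of GRCh38.p14, 5' to 3' on the strand of the gene and ending at the base before the start, except that the 20 bases next to the start of LAMB3 are left out because they lie in an annotated exon. Capitals mark TGANTCA in the laminin genes and CCAAT in COL5A3. The LAMB3 stretch is chr1:209651395-209651624 (- strand), the LAMA3 stretch chr18:23872770-23873019 (+ strand) and the COL5A3 stretch chr19:10010505-10010754 (- strand).
LAMB3: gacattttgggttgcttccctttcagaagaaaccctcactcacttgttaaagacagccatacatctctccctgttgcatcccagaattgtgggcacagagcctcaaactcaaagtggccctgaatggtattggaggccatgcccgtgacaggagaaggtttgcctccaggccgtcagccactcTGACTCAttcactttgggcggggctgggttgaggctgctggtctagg
LAMA3: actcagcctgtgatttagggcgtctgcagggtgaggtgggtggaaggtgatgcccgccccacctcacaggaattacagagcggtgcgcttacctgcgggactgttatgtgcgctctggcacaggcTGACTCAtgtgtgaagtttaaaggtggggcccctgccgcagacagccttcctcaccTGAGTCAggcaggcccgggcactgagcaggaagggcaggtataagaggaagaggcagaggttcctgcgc
COL5A3: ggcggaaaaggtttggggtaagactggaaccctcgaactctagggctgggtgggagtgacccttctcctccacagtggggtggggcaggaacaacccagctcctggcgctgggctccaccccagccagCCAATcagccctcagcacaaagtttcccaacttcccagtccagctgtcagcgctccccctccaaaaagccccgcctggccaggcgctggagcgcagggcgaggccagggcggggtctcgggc
The start of LAMB3 shown is 1 of 3 listed for the gene and was picked because TGANTCA lies before it. For LAMB3 and LAMA3 a window was shown only if it held such a match. Other upregulated genes, such as LAMA4 and COL2A1, are not shown. The start of LAMB3 shown lies inside 2 annotated transcripts, and the start of LAMA3 lies inside 3. The match in LAMB3 begins 67 bases before the start, those in LAMA3 125 and 69 bases before, and CCAAT in COL5A3 122 bases before. Of the 59 genes, 45 had a RefSeq window, 63 windows in all, each of 250 bases before and 50 after a start. TGANTCA, on either strand, was in 4 of the 63 (6.35%; COL10A1, ITGA5, LAMA3 and LAMB3) and in 7.71% of the 35116 windows of all genes. GGAAGGAA, a doubled ETS core of the kind that EWSR1-FLI1 is known to bind, was in 3.17% of the windows (ITGA10 and LAMB2) and in 3.67% of all windows, CCAAT in 17.5% and 34.6%, and TATAAA in 14.3% and 11.5%. These matches are descriptions of letters in a window, not of binding.

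Of the 18 tested integrin chains, 4 were upregulated in EW8 (ITGB4, ITGB7, ITGB3 and ITGAM) and 2 in TC71 (ITGB3 and ITGAM, both calls lost without single libraries), where 13.9% and 3.26% of all genes were. Of the 6 tested alpha chains that bind collagen or laminin, 0 were called in either line by edgeR and 0 by DESeq2. Upward, 3 of them had an unadjusted p below 0.05 in EW8 and 2 in TC71, downward 1 in each. Even at an adjusted p below 0.05, 37.0% of all genes were higher and 31.6% lower in EW8, and 22.9% and 19.2% in TC71. The median log2 fold changes of the 6 chains were 0.48 and 0.23. With no fold threshold, ITGA1, ITGA3 and ITGA7 rose in EW8 and ITGA2 fell. ITGA1 and ITGA2, collagen receptor chains whose genes are neighbours on chromosome 5, went opposite ways. ITGA1 rose from 20.2, 16.5 and 18.5 to 31.3, 29.2 and 31.7 CPM in EW8 (0.73 ± 0.07, adjusted p = 4.43e-11), and ITGA2 fell from 14.1, 14.8 and 13.3 to 6.97, 8.22 and 7.39 CPM (-0.89 ± 0.10, adjusted p = 1.10e-09). In TC71 the same genes had 0.20 ± 0.08 (adjusted p = 0.0575) and -0.43 ± 0.12 (adjusted p = 0.00389). ITGA7, the muscle laminin receptor chain, rose by 0.59 ± 0.07 and 0.26 ± 0.07 in the respective lines. ITGA3, ITGA6 and ITGA10 did not pass in TC71, and the latter pair did not pass in EW8.

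ITGB1, the beta chain that most of these alpha chains need, fell slightly in both lines, from 243, 228 and 241 to 183, 204 and 198 CPM in EW8 (log2 fold change -0.29 ± 0.04, adjusted p = 4.58e-07) and from 333, 321 and 326 to 270, 293 and 292 CPM in TC71 (-0.19 ± 0.04, adjusted p = 0.000298). The groups did not overlap. ITGA4, the alpha 4 chain that binds fibronectin and VCAM1, fell as well, with log2 fold changes of -0.50 ± 0.07 and -0.31 ± 0.08 (adjusted p = 2.44e-07 and 0.00389), with 26.4% of its exon bases shared with CERKL on the opposite strand. ITGA5, the fibronectin receptor chain, rose from 110, 119 and 111 to 171, 164 and 170 CPM in EW8 (0.57 ± 0.04, adjusted p = 1.03e-13) and from 95.9, 96.0 and 94.8 to 117, 112 and 121 CPM in TC71 (0.29 ± 0.04, adjusted p = 1.82e-06). ITGAV, which pairs with several beta chains to bind RGD motifs, rose by 0.33 ± 0.05 and 0.27 ± 0.05 (adjusted p = 8.37e-08 and 1.43e-05). ITGB5, a partner of ITGAV, rose by 0.22 ± 0.06 in EW8 (adjusted p = 0.00146) and had -0.11 ± 0.07 in TC71 (adjusted p = 0.184). The changes of ITGA4, ITGA5, ITGAV and ITGB5 all stayed within the fold of 2.

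ITGB4, the hemidesmosome beta chain that binds laminin with ITGA6, was upregulated in EW8. It had 1.23, 1.26 and 1.10 CPM at 0 h and 3.35, 2.36 and 3.13 CPM at 48 h (log2 fold change 1.32 ± 0.20, adjusted p = 3.42e-07), against 4.10, 5.20 and 3.93 CPM and then 7.02, 6.56 and 7.33 CPM in TC71 (0.68 ± 0.12, adjusted p = 3.16e-05). All EW8 libraries lay below all TC71 libraries. Its alpha partner ITGA6 had 8 to 20 counts in the EW8 libraries and 2 to 9 in those of TC71. ITGB7, the gut-homing beta chain, had 6, 5 and 11 counts and then 11, 15 and 25 in EW8 (1.5 ± 0.40, adjusted p = 0.00129), with 42.3% of its exon bases shared with ZNF740 on the opposite strand. ITGB3, the beta chain of platelets and osteoclasts, had 3, 0 and 2 counts followed by 8, 8 and 3 in EW8, a ratio of 4.69 (95% exact counting interval 1.69 to 16.1, adjusted p = 0.0130), and 8, 3 and 13 followed by 22, 28 and 13 in TC71 (1.13 ± 0.42, adjusted p = 0.0282). The EW8 call of ITGB3 was lost without replicate 2 or 3 at 0 h or replicate 1 or 2 at 48 h (adjusted p from 0.0503 to 0.0644), its TC71 call without replicate 1 or 2 at 0 h or at 48 h (0.0765 to 0.145) and with DESeq2 (0.0807). For ITGB3 33.2% of its exon bases are shared with a gene on the same strand.

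The beta and alpha chains of the leukocyte integrins stood far apart in level. ITGB2, the beta 2 chain known from white blood cells, was the most abundant of the 59 genes per length in each group, at 132 ± 6.54 and 175 ± 4.14 CPM per kb in EW8 and 182 ± 4.52 and 255 ± 15.2 in TC71 at 0 h and 48 h. It rose from 354, 390 and 365 to 501, 479 and 496 CPM in EW8 (log2 fold change 0.41 ± 0.04, adjusted p = 9.16e-11) and from 517, 519 and 496 to 734, 668 and 747 CPM in TC71 (0.49 ± 0.04, adjusted p = 8.87e-12), with no overlap and with a difference between the lines of -0.08 ± 0.06 (adjusted p = 0.292). Its alpha partner ITGAM had 1, 0 and 1 counts at 0 h, then 10, 8 and 13 at 48 h in EW8, a ratio of 19.1 (95% exact counting interval 4.87 to 165, adjusted p = 1.40e-06), and 5, 4 and 6 followed by 10, 13 and 14 in TC71 (1.03 ± 0.41, adjusted p = 0.0449). These intervals cover counting error only. The TC71 call of ITGAM was lost with DESeq2 (adjusted p = 0.162) and without any of 11 of the 12 libraries (0.0513 to 0.143). The leukocyte marker PTPRC held 0 to 5 counts in the same libraries. ITGAE, the alpha chain of epithelial lymphocytes, ran from 12.7 to 16.5 CPM over the 12 libraries, with log2 fold changes of -0.06 and 0.02 (adjusted p = 0.570 and 0.879).

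The question of whether the lines responded alike was tested as the difference between their responses, which shares libraries with both of the comparisons above. Here 6 members had a larger rise in EW8 by a fold above 2 (12.2%, where 7.28% of all genes did): COL16A1, COL1A1, COL5A3, COL9A3, ITGAM and LAMB3. The reverse held for COL18A1 (2.04%, where 0.981% of all genes did), a call lost without any of 7 of the 12 libraries (adjusted p from 0.0514 to 0.171) and with DESeq2. The ITGAM call rests on 2 counts over the EW8 libraries at 0 h. With 3 counts per library as the floor, its response was 1.99 in EW8 beside 1.03 in TC71, less than the fold of 2 apart. COL5A3 differed by 2.39 ± 0.16 (adjusted p = 4.39e-14), LAMB3 by 2.09 ± 0.24 (adjusted p = 5.49e-09), COL9A3 by 1.30 ± 0.27 (adjusted p = 0.000446) and COL1A1 by 1.13 ± 0.14 (adjusted p = 1.83e-06). With no fold threshold 22 members differed upward (25.7% of all genes did) and 2 downward (22.4%). The median difference was 0.44 beside 0.04 for all genes, or 0.42 with the low genes at their bound.

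At 0 h the lines expressed different sets of chains. Relative to TC71, 10 of the 49 tested members were higher in EW8 (20.4%, where 4.77% of all genes were) and 13 lower (26.5%, where 11.9% of all genes were). With no fold threshold 21 were higher (32.8% of all genes) and 20 lower (32.9%). The largest absolute log2 difference among the tested members was in collagen IX. COL9A2 had 4, 2 and 8 counts in EW8 and 6235, 5726 and 5762 in TC71, a log2 difference of -10.31 ± 0.19 (adjusted p = 1.54e-14), and COL9A3 differed by -4.76 ± 0.17 (adjusted p = 4.80e-17). Both are chains of the same cartilage molecule. At 87.8 ± 9.27 CPM per kb, COL9A2 overlapped ITGB1 (87.4 ± 1.57) next below ITGB2 in TC71, and it stood at 0.0624 ± 0.0227 in EW8.

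Of the 9 tested fibrillar chains, 3 were higher in EW8 (COL3A1, COL5A2 and COL27A1) and 1 lower (COL24A1), beside 4.77% and 11.9% of all genes. COL1A1 was lower within the fold of 2 (-0.89, adjusted p = 6.75e-07). COL3A1 was at 128, 129 and 132 CPM in EW8 and 28.2, 30.8 and 28.7 CPM in TC71 (log2 difference 2.15 ± 0.05, adjusted p = 3.54e-28), and COL5A2 at 266, 282 and 270 against 128, 125 and 128 CPM (1.10 ± 0.04, adjusted p = 3.06e-22). These genes are neighbours on chromosome 2, at 188974373 to 189012746 and 189031898 to 189225312. LAMA2 (1.18 ± 0.05) and COL21A1 (1.05 ± 0.05) were also higher in EW8, as were the receptor chains ITGA2 (1.31 ± 0.10) and ITGA4 (1.17 ± 0.08), with adjusted p-values from 2.62e-20 to 1.58e-13. The lower members included the 3 tested chains of collagen VI, COL6A1 (-1.81 ± 0.13), COL6A2 (-1.40 ± 0.28) and COL6A3 (-3.21 ± 0.23), together with COL24A1 (-1.46 ± 0.11), ITGB4 (-1.89 ± 0.18) and ITGA3 (-1.15 ± 0.16). By total counts alone in place of TMM, COL21A1 and COL5A2 fell just under the fold of 2 (0.92 and 0.97). The rest of the higher set were COL25A1, COL27A1, ITGA6 and ITGA10, and the rest of the lower set COL15A1, COL16A1, COL4A4, ITGAM and ITGB3, all with a mean below 30 counts in the lower line. Of these, the calls of COL27A1 (without EW8 replicate 2 or TC71 replicate 3 at 0 h), COL4A4 (without EW8 replicate 3 or TC71 replicate 1) and ITGB3 (without TC71 replicate 3) were lost when 1 library was left out, with adjusted p-values of 0.0596 to 0.161. COL15A1, ITGAM and ITGB3 held 1, 2 and 5 counts over the EW8 libraries at 0 h and 27, 15 and 24 over those of TC71. With 3 counts per library as the floor, TC71 was higher by log2 1.52, 0.68 and 1.32. At this bound ITGAM fell short of the fold of 2.

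**Figure D4:**
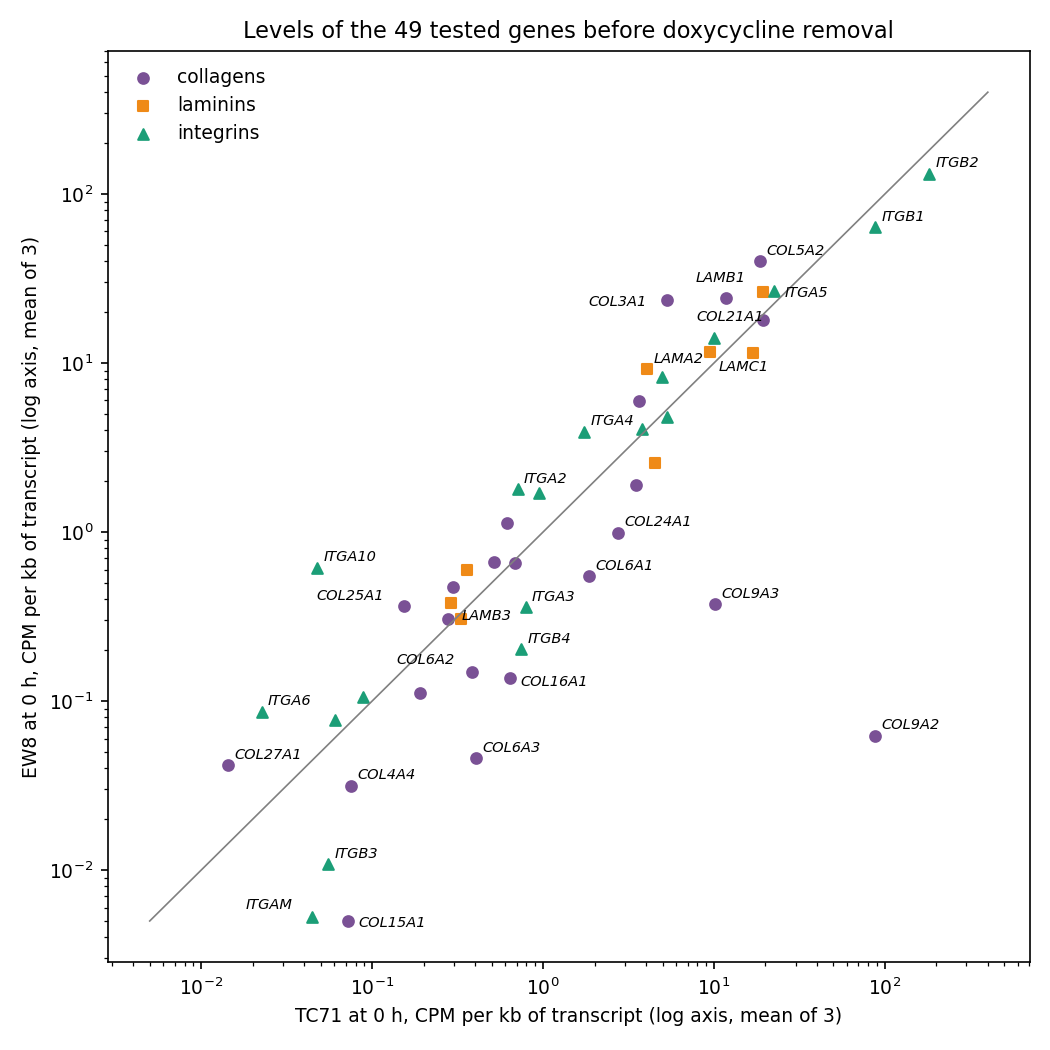
Level per length at 0 h in TC71 (horizontal) and EW8 (vertical), CPM per kb of the canonical transcript on log axes, mean of 3 libraries, for the 49 tested genes; the grey line marks equal levels, names mark genes called between the lines and a few abundant or discussed ones, and COL15A1 is drawn at its axis floor of 0.005. COL9A2 lies far below the line at 87.8 in TC71 and 0.0624 in EW8, and COL3A1 above it at 23.6 in EW8 and 5.32 in TC71.

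Other genes of the matrix were described from lists chosen with these families. Of 14 tested further matrix and basement membrane genes, 7 were upregulated in EW8 and 3 in TC71 (13.9% and 3.26% of all genes). Fibronectin (FN1), the ligand of ITGA5, had 399, 305 and 487 counts at 0 h, then 1817, 2157 and 2194 at 48 h in EW8 (log2 fold change 2.66 ± 0.07) and 582, 405 and 470 followed by 1305, 1419 and 1740 in TC71 (1.36 ± 0.06). The adhesion-modulating glycoprotein TNC (2.68 ± 0.07 and 1.03 ± 0.06) and nidogen 1 (NID1), which links laminin to collagen IV (1.67 ± 0.10 and 1.56 ± 0.10), were upregulated in both lines, and ECM1 in EW8 (1.26 ± 0.18). The genes TNXB, THBS1 and SPP1, called in EW8 from under 20 counts per library at 0 h and named after their values were seen, make up the 7. At an adjusted p below 0.05 with any fold, 11 rose and 1 fell in EW8 (37.0% and 31.6% of all genes did). In TC71 6 rose and 1 fell (22.9% and 19.2%). The genes that fell were AGRN in EW8 (-0.74 ± 0.11, adjusted p = 6.82e-05) and NID2 in TC71 (-0.73 ± 0.23, adjusted p = 0.0124).

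Of 25 genes that modify or process collagen, 2 were upregulated in EW8, where 13.9% of all genes were (ADAMTS14 and P4HA3, both from under 20 counts at 0 h), 1 was downregulated (P3H3, a prolyl 3-hydroxylase, -1.02 ± 0.08, adjusted p = 5.67e-13) and 1 was upregulated in TC71 (ADAMTS14). At an adjusted p below 0.05 with any fold, EW8 had 9 higher and 10 lower (37.0% and 31.6% of all genes). TC71 had 11 higher and 3 lower (22.9% and 19.2%). The collagen chaperone SERPINH1 had log2 fold changes of -0.25 ± 0.05 and 0.09 ± 0.05. Of 23 integrin adaptor and signalling genes, 2 were upregulated in EW8, where 13.9% of all genes were, namely the focal adhesion proteins LIMS2 (2.52 ± 0.12, adjusted p = 7.04e-19) and ZYX (1.80 ± 0.10, adjusted p = 5.67e-09). With no fold threshold 9 of the 23 rose and 8 fell in EW8 (37.0% and 31.6% of all genes did; median log2 fold change 0.05). In TC71 12 rose and 3 fell (22.9% and 19.2% of all genes did), none by the fold of 2, and 13 and 3 had an unadjusted p below 0.05 by edgeR. Of 9 other matrix receptors, DAG1, the laminin receptor dystroglycan, was downregulated in EW8 (-1.12 ± 0.04, adjusted p = 5.38e-22), and SDC1 was upregulated in both lines from low counts. Over all genes 3.35% were downregulated in EW8, and 13.9% and 3.26% upregulated in the respective lines.

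Summed markers of other cell types that also make matrix were higher at 48 h in both lines. The 6 fibroblast markers in the table, of 7 examined, summed to 44.9 to 46.7 CPM at 0 h and 91.5 to 95.4 CPM at 48 h in EW8, and to 127 to 132 and 189 to 201 CPM in TC71. Of the 6, 3 were upregulated in EW8 (13.9% of all genes) and 0 in TC71 (3.26%), where 4 rose within the fold of 2 (22.9% of all genes had such an adjusted p upward, at any fold). PDPN went the other way in TC71, from 23, 19 and 21 to 11, 12 and 13 counts (-1.06 ± 0.31, adjusted p = 0.00634), and it was at 0 counts in every EW8 library. LUM held 0 to 4 counts in TC71, and DCN is itself a matrix gene. The 3 epithelial markers in the table (EPCAM, KRT8 and KRT18, of 7 examined) summed to 6.92 to 9.39 and 21.4 to 23.2 CPM in EW8 and 71.1 to 73.1 and 98.4 to 111 CPM in TC71. Of the 3, 2 were upregulated in EW8 (13.9% of all genes) and 0 in TC71 (3.26%). In TC71 all 3 rose within the fold of 2 (22.9% of all genes had such an adjusted p upward, at any fold). EPCAM itself held only 2 to 6 counts at 0 h and 3 to 9 at 48 h in EW8. The part of these markers in the changes of collagen, laminin and integrin RNA was not tested.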

How the data were processed

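RNA was extracted with the RNeasy Plus kit, made into stranded poly(A) libraries and sequenced as paired-end reads on an Illumina instrument. Read quality was examined in FastQC by the authors, who used STAR for the alignment to hg38. The deposited values are raw counts per gene, whole numbers with no normalization, in 1 table of 20771 genes and 12 libraries. No gene had fewer than 21 counts over the 12 libraries together. The counting tool, its annotation and its strand setting are not given in the sources used here.

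Groups came from the sample titles. Replicate libraries differed by more than sampling noise (chi-square per gene 1.98 to 9.16), so all 12 were kept as separate. Counts were fitted with edgeR 4.0.16 in R 4.3.3: filterByExpr with the 4 groups given (at least 10 counts, total of at least 15), TMM factors and a robust quasi-likelihood fit with no replicate block, adjusted by Benjamini-Hochberg over 16515 genes. Calls needed a fold of more than 2 together with an adjusted p under 0.05. The standard error is the absolute log2 fold change divided by the square root of the F statistic. CPM uses TMM-scaled library sizes, and levels between genes are CPM per kb of the canonical transcript in GENCODE release 44, which all 59 members matched by identifier. The common biological coefficient of variation was 4.17%, and genes with no more than 3 counts throughout a group were given by counts and a bound.

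The members, role groups, further lists and markers were chosen with earlier results of these data known. Full statistics were given for up to 8 called members per line and direction with a lower group of at least 20 counts, by fold, and up to 6 by p for the other comparisons, and partner chains were given whether called or not. Values of other members stand beside them as description. Alternatives were RLE size factors, total counts alone, DESeq2 1.42.0, other filters and thresholds, each line alone, a replicate block and each library left out in turn. The procedure was tested on simulated counts. Promoter windows came from the RefSeq table of GRCh38.p14, and 14 of the 59 genes had none. Immunoblots and other assays were not analysed here, and 1 untested gene is not reported here.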

Additional observations from a re-analysis of the deposited data

Results flagged for a closer look

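The response to removal of doxycycline differed between the lines, by the test of the difference itself (edgeR, Benjamini-Hochberg adjustment over 16515 genes) and by a fold above 2, for 7 of the genes, 6 of them higher (7.28% of all genes) and 1 lower (0.981%). The difference (EW8 minus TC71, log2) was 2.39 for COL5A3, 2.19 for COL16A1, 2.09 for LAMB3, 1.30 for COL9A3 and 1.13 for COL1A1, with adjusted p-values from 4.39e-14 to 0.000446. These 5 genes rose in both lines with an adjusted p below 0.05, and more in EW8. For ITGAM the fitted difference was 3.0 (adjusted p = 0.00414), which depends on how 2 counts over the EW8 libraries at 0 h are treated. Its EW8 response alone was 1.99 with 3 counts per library as the floor, less than the fold of 2 above its TC71 response of 1.03. For COL18A1 it was -1.11 (adjusted p = 0.0412), from 4 to 35 counts per library, with a TC71 value of 0.08 ± 0.24, and the call was lost with DESeq2 and without any of 7 of the 12 libraries (adjusted p from 0.0514 to 0.171).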

How the results depend on the processing

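Of 2306 values of single genes under the alternatives, 2231 kept direction and side of the threshold, 60 lost the call, 6 gained it and 9 changed sign, all 9 in genes called in no time comparison. By total counts, ITGA10 stood at 0.036 and LAMA5 at 0.021 in EW8. With 1 library left out, ITGA6 in EW8 ran from -0.012 to 0.62, ITGA10 in TC71 from -0.028 to 1.34 and ITGA9 in TC71 from -0.54 to 0.017, and in the difference between responses ITGA6 ran from -0.64 to 0.16 and ITGA9 from -0.37 to 0.19. Their causes were not tested. Total counts alone moved the median of all genes to 0.16 in EW8, 0.12 in the difference between responses and -0.14 between the lines at 0 h.

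With at least 10 counts in every library, 36 of the members were tested, and upregulated members were 11 in EW8 and 3 in TC71, with 0 downregulated in EW8, 0 with a lower response in EW8 and 6 lower in EW8 at 0 h; over all genes this filter left 1510 calls of 2848 in EW8, 233 of 680 in TC71, 732 of 1364 in the difference and 1368 of 2751 at 0 h. With no fold threshold the counts were 33 and 4 (EW8, higher and lower), 22 and 4 (TC71), 22 and 2 (difference) and 21 and 20 (0 h). The EW8 downregulated count was 0 with total counts, with each line fitted alone and at an adjusted p below 0.01. The count with a lower response in EW8 was 0 with total counts, with DESeq2, with the replicate block and at an adjusted p below 0.01, and 2 with no filter.

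Leaving out 1 library gave 14 to 20 and 0 to 1 (EW8, higher and lower), 3 to 7 and 0 to 0 (TC71), 6 to 7 and 0 to 2 (difference), and 9 to 10 and 12 to 13 (0 h). The TC71 count was 3 without replicate 1 at 48 h. The EW8 lower count was 0 without replicate 3 at 0 h or replicate 1 at 48 h. The lower-response count was 0 without EW8 replicate 3 at 0 h, any EW8 library at 48 h, TC71 replicate 2 at 0 h or TC71 replicates 1 or 3 at 48 h, and 2 without TC71 replicate 3 at 0 h. In deviations from the group mean, same-numbered libraries of a line correlated at -0.179 to -0.00793 and differently numbered ones at -0.0599 to 0.165. The replicate numbers thus gave no sign of pairing, but whether libraries shared a culture or harvest cannot be told from these values. The replicate block gave 17 and 1 (EW8), 5 and 0 (TC71), 6 and 0 (difference) and 10 and 13 (0 h), and over all genes 2856, 663, 1329 and 2739 calls. Depth limits the genes under 20 counts.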

Other observations

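The 10 genes that were too low to test held 0 to 18 counts per library. COL14A1 had the highest single value, 18 counts in replicate 3 of TC71 at 48 h, where the other libraries of that group held 4 and 8. COL28A1, a beaded filament collagen, had 1, 0 and 3 counts in EW8 at 0 h and 6, 7 and 9 at 48 h, and 0 to 4 counts in TC71. COL8A2, a network collagen of the eye, had 3, 2 and 2 counts in TC71 at 0 h and 11, 10 and 14 at 48 h, and COL10A1, the collagen of hypertrophic cartilage, had 0 counts in every TC71 library at 0 h and 4, 3 and 5 at 48 h. COL6A6, ITGA11, ITGB6 and COL9A1 stayed at or below 8 counts throughout. These values were not tested.

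In collagen IX of TC71, COL9A2 stood at 87.8 ± 9.27, COL9A3 at 10.1 ± 0.538 and COL9A1 at 0.0669 ± 0.0138 CPM per kb at 0 h. ITGB2 stood at 182 ± 4.52 CPM per kb in the same libraries and its alpha partner ITGAM at 0.0445 ± 0.00706. Some 4.15% of the exon bases of ITGB2 are shared with ITGB2-AS1 on the opposite strand. Whether ITGB2 RNA has another alpha partner here was not tested, since ITGAL was not analysed here.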
